A study of Mus musculus with 8 samples.

Results

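The genes described are 9 that encode matrix glycoproteins and proteoglycans, namely Thbs1, Vcan, Fn1, Olfml2b, Tgfbi, Sparc, Sdc1, Sdc3 and Sdc4, out of 12393 genes measured on the arrays. They are represented by 23 probe sets of 22626, taken as every probe set whose only gene symbol is one of the 9. The genes were selected on these same arrays: Thbs1, Vcan, Olfml2b and Fn1 by their large positive differences between PICALM-rescued and Picalm-knockout cells, Sdc1 by its large negative difference, and the others with those values known. Their differences between the groups are therefore given as a description, and counts of them past a threshold stand beside those of all probe sets without being read as evidence. The choice did not use their mean levels in the 4 cell lines, which were tested. That test is not independent of the choice, since its error is the spread of the differences within lines.

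Expression was measured on 8 Affymetrix mouse arrays, 4 of PICALM-rescued cells and 4 of Picalm-knockout cells, 1 of each group from each of 4 cell lines, PICALM6A (6A below), PICALM6B (6B), PICALM6D (6D) and PICALM84 (84). All 8 cultures were Picalm-null hematopoietic progenitors from the fetal liver of embryonic day 14 embryos with the fit1 Picalm fit1-5R alleles, on a B6(Cg)-TyrC-2J/J background, immortalized with a retroviral MLL-ENL leukemia fusion in the MSCV-IRES-eGFP vector, and all grew in interleukin-3 at 5 ng/ml and stem cell factor at 50 ng/ml. PICALM-rescued cells carried human PICALM cDNA in the MSCVneo vector and Picalm-knockout cells the empty vector, both under G418 selection. The comparison asks which transcripts differ when the endocytic adaptor PICALM is put back. PICALM in rescued cells may lie above the physiological level, each line was measured once in each group, and Picalm itself was not analysed here, so the labels were not checked against it. In these bulk samples, fewer cells of a type and less RNA per cell cannot be told apart.

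Matrix proteins made by blood cells act mostly at the cell surface and in the space around the cell. Thrombospondins, fibronectin and the TGF-beta-induced protein Tgfbi are secreted adhesive glycoproteins that bind integrins and other receptors, and Sparc is a secreted collagen-binding glycoprotein. Vcan encodes versican, a large chondroitin sulfate proteoglycan that binds hyaluronan and is made by monocytes. Olfml2b belongs to a family of secreted glycoproteins with an olfactomedin domain. Syndecans are heparan sulfate proteoglycans that span the membrane, serve as co-receptors for growth factors and matrix proteins, and shed their outer part. Among blood cells, Sdc1 is best known as the CD138 antigen of plasma cells.

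The promoters of Vcan, Olfml2b and Sdc1 are shown because these genes had the largest differences in either direction among the 7 of 9 genes with a RefSeq promoter entry, and Thbs1 and Fn1 had none. Each sequence is the 250 bases before the annotated start on build GRCm38.p6, written 5′ to 3′ on the gene's own strand, at chr13:89742513-89742762 (minus strand) for Vcan, chr1:170644282-170644531 (plus strand) for Olfml2b and chr12:8771146-8771395 (plus strand) for Sdc1. Capitals mark the letters GGGCGG of a GC box and TTGCNNAA of a C/EBP site, found by searching both strands.
Vcan: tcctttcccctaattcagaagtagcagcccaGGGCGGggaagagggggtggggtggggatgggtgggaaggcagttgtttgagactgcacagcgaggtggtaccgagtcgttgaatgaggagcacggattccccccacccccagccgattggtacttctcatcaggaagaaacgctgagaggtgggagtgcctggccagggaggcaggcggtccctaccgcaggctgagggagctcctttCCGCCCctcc
Olfml2b: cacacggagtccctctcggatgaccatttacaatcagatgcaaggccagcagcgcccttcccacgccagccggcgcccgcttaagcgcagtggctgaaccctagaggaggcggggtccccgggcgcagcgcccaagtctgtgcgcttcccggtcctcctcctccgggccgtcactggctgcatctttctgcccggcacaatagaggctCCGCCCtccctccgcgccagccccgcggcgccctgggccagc
Sdc1: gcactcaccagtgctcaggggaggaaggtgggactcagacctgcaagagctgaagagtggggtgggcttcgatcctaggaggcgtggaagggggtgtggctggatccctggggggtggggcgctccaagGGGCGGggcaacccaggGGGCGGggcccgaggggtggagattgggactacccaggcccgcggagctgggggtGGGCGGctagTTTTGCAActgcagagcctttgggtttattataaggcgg

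The Vcan window held GC boxes starting 219 and 10 bases before the start, the Olfml2b window 1 box at 42 bases, and the Sdc1 window 3 boxes at 121, 104 and 49 bases with a C/EBP match at 39 bases, none of them overlapping another. A GC box was present in 6 of the 7 promoters (all but that of Sparc) and in 32.7% of all 32851 promoter windows of this length. The C/EBP letters were in 1 of the 7, that of Sdc1, and in 9.56% of all windows. None of the 7 held TATAAA, which is in 12.4% of all windows, TGANTCA of AP-1 (6.75%), CACGTG of the E-box (6.02%) or GAGGAAGT of PU.1 (2.44%). The GC content was 62.4% for Vcan, 69.6% for Olfml2b and 66.0% for Sdc1, against a median of 52.4% over all windows. These matches describe the letters of the windows only.

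Values are given as log2 expression after RMA, so that 1 unit is a doubling. The SE of a difference is the moderated one of the limma fit without the line. It draws on the spread of all probe sets and ignores the pairing by line, so it does not follow from the SDs. Levels of progenitor genes set the context: Hoxa9, Myb and Ptprc were at 13.16 ± 0.27, 13.15 ± 0.12 and 12.44 ± 0.10 (SD, n = 4) in PICALM-rescued cells and at 13.11 ± 0.28, 13.11 ± 0.13 and 12.39 ± 0.12 (SD, n = 4) in Picalm-knockout cells. Of the 9 progenitor genes, 1 was higher and 1 lower in rescued cells of every line, against 13.4% and 12.0% of all genes. Their median difference was −0.08. Their mean level was 10.04, 10.09, 10.21 and 10.85 in rescued cells of 6A, 6B, 6D and 84 and 10.32, 10.39, 10.27 and 11.17 in knockout cells. The gene that was lower was Cd34, a progenitor surface marker, at 9.76 ± 0.93 in rescued cells and 11.01 ± 0.77 in knockout cells (SD, n = 4 each). The fibroblast genes Col1a1, Col3a1, Dcn and Lum, which would mark stromal cells from the fetal liver, lay among the dimmest 40% of probe sets on these arrays. The medians of the 8 arrays were within 7.32 to 7.35. Line 84 stood apart from the other lines in several of the genes below, and values without it are given where it decides them.

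**Figure D1:**
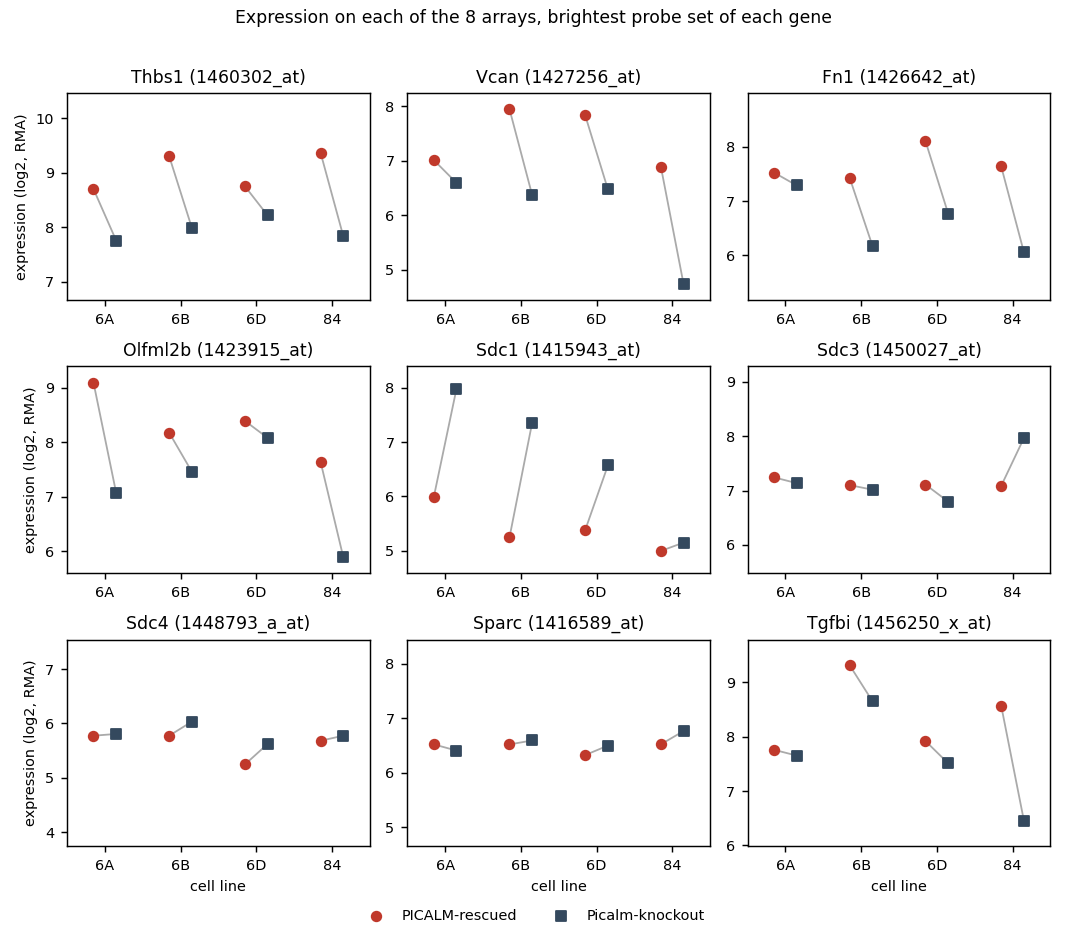
Expression of the brightest probe set of each gene on each array (log2, vertical axis, the same span in every panel) by cell line (horizontal axis), with the PICALM-rescued array as a circle left of the Picalm-knockout array as a square. Thbs1, Vcan and Fn1 lay higher on all 4 rescued arrays than on any knockout array, Sdc1 lay far lower in the rescued array of 6A, 6B and 6D but not of 84, and Sdc3, Sdc4 and Sparc had average differences between −0.19 and −0.09.

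Thbs1, which encodes a thrombospondin that binds Cd47, Cd36 and integrins and can activate latent TGF-beta, had a positive difference, PICALM-rescued minus Picalm-knockout, in each line. Its brighter probe set, 1460302_at, read 8.70, 9.31, 8.76 and 9.37 in rescued cells of lines 6A, 6B, 6D and 84, against 7.76, 7.99, 8.22 and 7.84 in knockout cells of the same lines. Every rescued array was above every knockout array, with means of 9.03 ± 0.35 in rescued cells and 7.95 ± 0.20 in knockout cells (SD, n = 4 each), a difference of 1.08 (SE 0.18) or 2.12-fold. The differences within lines were 0.95, 1.32, 0.53 and 1.53, smallest in 6D. A dimmer probe set of the gene, 1450377_at, read 6.60, 7.52, 6.62 and 7.09 in rescued cells and 6.13, 6.20, 6.51 and 6.30 in knockout cells, 1.60-fold higher and again without overlap, although in 6D the gap was only 0.11. Another probe set, 1421811_at, is annotated to both Pald1 and Thbs1 and so was not counted. It read 9.72, 10.57, 9.91 and 10.33 in rescued cells and 8.68, 9.22, 9.52 and 8.55 in knockout cells, a 2.21-fold difference with the smallest gap, 0.39, also in 6D.

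Vcan was higher in rescued cells of all 4 lines on all 3 of its probe sets, without overlap of the groups. The brightest, 1427256_at, read 7.01, 7.95, 7.84 and 6.89 in rescued cells and 6.59, 6.37, 6.48 and 4.73 in knockout cells. The knockout array of line 84 was far below the other knockout arrays. The means were 7.42 ± 0.55 in rescued cells and 6.04 ± 0.88 in knockout cells (SD, n = 4 each), a difference of 1.38 (SE 0.45) or 2.60-fold, and 2.17-fold over the 3 lines without 84. Line 6A had the smallest difference, 0.42, against 1.58 in 6B, 1.36 in 6D and 2.16 in 84. The probe set 1421694_a_at followed this pattern, with 6.65, 7.64, 7.43 and 6.43 in rescued cells and 6.14, 5.93, 6.12 and 4.63 in knockout cells, 2.52-fold. On the probe set 1427257_at the knockout array of line 84 was lowest by a narrower gap. It read 6.66, 7.43, 7.07 and 6.54 in rescued cells and 6.30, 6.0, 6.0 and 5.76 in knockout cells, a 1.87-fold difference.

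Fn1, which encodes fibronectin, a ligand of the integrins that progenitors use to hold on to marrow stroma, was higher in rescued cells on its brighter probe set. The probe set 1426642_at read 7.52, 7.42, 8.10 and 7.64 in rescued cells and 7.29, 6.17, 6.77 and 6.06 in knockout cells. The groups did not overlap, but the knockout array of 6A lay just under the lowest rescued array. The means were 7.67 ± 0.30 in rescued cells and 6.57 ± 0.57 in knockout cells (SD, n = 4 each), 1.10 (SE 0.28) or 2.14-fold, with a difference of 0.24 in 6A and of 1.25, 1.33 and 1.58 in the other lines. The second Fn1 probe set, 1437218_at, was among the dimmest of the array, at 4.07 to 4.39 in rescued cells and 4.07 to 4.30 in knockout cells, and differed by 0.06.

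Olfml2b had 1 probe set, 1423915_at, with 9.10, 8.17, 8.39 and 7.64 in rescued cells and 7.07, 7.46, 8.08 and 5.89 in knockout cells. It was higher in the rescued array of every line, but the groups overlapped, since the knockout array of 6D was above the rescued array of 84. The means were 8.33 ± 0.60 in rescued cells and 7.12 ± 0.92 in knockout cells (SD, n = 4 each), 1.20 (SE 0.48) or 2.30-fold. Its pattern over the lines was unlike that of Vcan and Fn1: the difference was 2.03 in 6A, the line in which Vcan and Fn1 differed least, 1.75 in 84, 0.72 in 6B and 0.31 in 6D.

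Tgfbi, named for its induction by TGF-beta, had average differences of 1.51-fold to 1.88-fold higher in rescued cells over 4 probe sets, and line 84 decided much of them. The probe set 1456250_x_at read 7.76, 9.31, 7.92 and 8.57 in rescued cells and 7.65, 8.65, 7.51 and 6.46 in knockout cells, with means of 8.39 ± 0.71 in rescued cells and 7.57 ± 0.90 in knockout cells (SD, n = 4 each). The groups overlapped, and the difference was 2.11 in line 84 against 0.11 in 6A, 0.66 in 6B and 0.41 in 6D. Without line 84 the folds of the 4 probe sets were 1.19 to 1.48. On 1448123_s_at the rescued arrays read 7.50, 8.92, 7.34 and 8.61 and the knockout arrays 7.12, 8.16, 6.77 and 6.68. In line 6A the other probe sets, 1437463_x_at and 1415871_at, differed by 0.00 and −0.05.

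Sparc had differences below 0.1 in size, and its groups overlapped. The brighter probe set, 1416589_at, read 6.52, 6.52, 6.32 and 6.52 in rescued cells and 6.41, 6.59, 6.50 and 6.76 in knockout cells, a difference of −0.09 (SE 0.09). The dimmer one, 1448392_at, stayed within 4.04 to 4.11 in rescued cells and 3.92 to 4.37 in knockout cells.

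Sdc1 was the gene with the large negative difference, which line 84, dim in both groups, did not show. The probe set 1415943_at read 5.99, 5.25, 5.38 and 5.00 in rescued cells and 7.98, 7.36, 6.57 and 5.15 in knockout cells. The knockout arrays of 6A, 6B and 6D were above every rescued array, and that of line 84 lay within the rescued range, so the groups overlapped. The means were 5.40 ± 0.42 in rescued cells and 6.76 ± 1.22 in knockout cells (SD, n = 4 each), a difference of −1.36 (SE 0.56) or 2.57-fold lower in rescued cells, and 3.39-fold lower over the 3 lines without 84. The probe set 1437279_x_at had a wider gap, with 4.58, 4.23, 4.31 and 4.05 in rescued cells and 7.28, 6.68, 6.23 and 4.11 in knockout cells, 3.44-fold lower on average and 5.13-fold lower without line 84. Its differences were −2.70, −2.45 and −1.93 in 6A, 6B and 6D and −0.06 in 84. On this probe set the rescued arrays and the knockout array of 84 lay at 4.05 to 4.58. That is near the 4.07 to 4.39 of rescued cells on the dim Fn1 probe set 1437218_at. So close to the floor the size of a fold is limited, and a further fall in line 84 could hardly be seen.

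The remaining Sdc1 probe sets did not show differences of this size. On 1415944_at the difference was −0.31, with −0.50, −0.47 and −0.31 in 6A, 6B and 6D and 0.05 in 84. On 1448158_at it was 0.03, higher in rescued cells of 3 lines and lower in 6A. All 4 Sdc1 probe sets lay among the dimmest 40% on the average over the 8 arrays. The plasma cell genes Jchain and Tnfrsf17 were at 3.97 ± 0.12 and 4.70 ± 0.08 in rescued cells and at 4.06 ± 0.05 and 4.70 ± 0.04 in knockout cells (SD, n = 4 each), among the dimmest 40% in both groups. Both lay below the mean of the 7 plasma cell genes measured, 6.36 to 6.80 in rescued and 6.43 to 6.83 in knockout cells.

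Sdc4, a widely expressed syndecan that gathers at focal adhesions, had negative average differences on both probe sets, largest in different lines. The dimmer probe set, 1417654_at, read 5.43, 4.99, 5.00 and 5.23 in rescued cells and 6.03, 6.83, 5.33 and 5.23 in knockout cells, 1.61-fold lower, with differences of −0.60, −1.84, −0.33 and 0.00, largest in 6B. On the brighter 1448793_a_at the difference was −0.19, with −0.03, −0.26, −0.38 and −0.09 in 6A, 6B, 6D and 84, largest in 6D. Sdc3, a syndecan best known from nervous tissue, differed by −0.09 on 1450027_at, 0.07 on 1420853_at and −0.02 on 1436482_a_at. Each was higher in rescued cells of 6A, 6B and 6D and lower in line 84, where 1450027_at read 7.09 in rescued and 7.96 in knockout cells, a difference of −0.88.

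**Figure D2:**
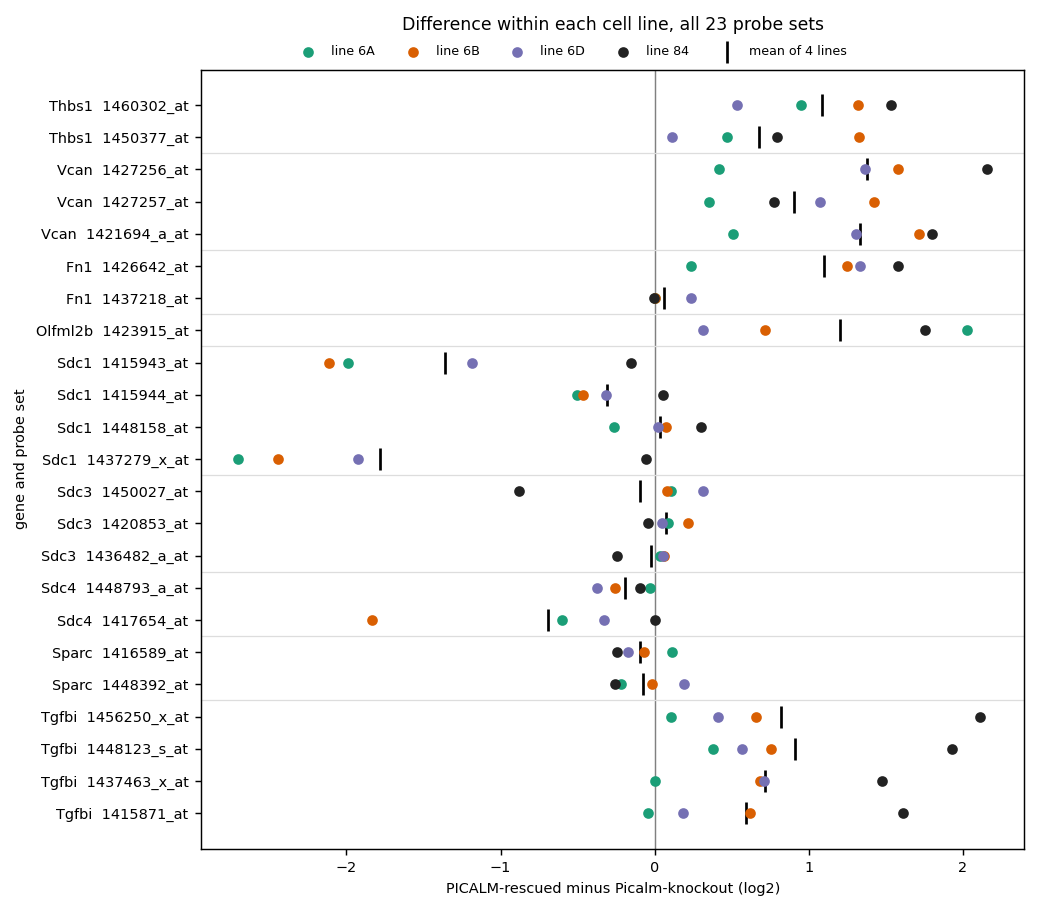
Difference between the PICALM-rescued and the Picalm-knockout array of each line (log2, horizontal axis) for all 23 probe sets (vertical axis), 1 point a line and a bar at the mean of the 4 lines. Line 84 (black) had the largest difference on every Tgfbi probe set, such as 2.11 on 1456250_x_at, and a difference near 0 on the Sdc1 probe set 1415943_at (−0.15).

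Over the 23 probe sets, 10 had a positive difference in each of the 4 lines, against 12.0% of all probe sets, 3 had a negative one in each, against 11.8%, and 10 were of mixed direction. The groups did not overlap on 6 probe sets that were higher, 2 of Thbs1, 3 of Vcan and 1 of Fn1, against 1.88% of all probe sets, and on 0 that were lower, against 1.57%. Nothing is read from these counts, because the genes were chosen on this contrast. In limma without a block for the line, 0 of the 22626 probe sets (0%) and so 0 of the 23 passed the false discovery rate of 12.3%. At an unadjusted p under 0.05, limma called 4.75% of all probe sets and 9 of the 23. With the line as a block, limma called 0.0796% of all probe sets and 0 of the 23.

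Other methods applied to the same contrast passed more probe sets, and the counts among the 23 again carry the choice of the genes. SAM, a permutation method for arrays, called 0.270% of all probe sets at the same rate without pairing, and 3 of the 23. Paired by line, SAM called 2.70% of all, and 7 of the 23. The methods' t-test at a p under 0.05 called 5.21% of all probe sets and 7 of the 23. Without both arrays of line 84, limma called 8 probe sets in all, of which 1 was among the 23.

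Probe sets of 1 gene mostly moved together over the 8 arrays. Pearson's r, given as a description over 8 arrays that share lines and groups, was 0.93 between the probe sets of Thbs1, 0.90 to 0.99 among those of Vcan, 0.90 to 0.99 among those of Tgfbi and 0.98 between 1415943_at and 1437279_x_at of Sdc1. It was 0.53 to 0.66 between 1448158_at and the other Sdc1 probe sets, 0.49 for Fn1, 0.70 for Sdc4, 0.40 for Sparc and −0.08 to 0.82 for Sdc3. The Fn1 and Sparc pairs each held a probe set among the dimmest of the array.

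The spread of each probe set over the arrays was divided into the part between the groups, the part between the lines and the remainder. Thbs1 1460302_at had 82.5% of its sum of squares between rescued and knockout cells and 7.39% between lines, with line means within 0.42 of each other. For Vcan the share between groups was 54.2% to 71.8% and that between lines 14.7% to 34.6%, and for Fn1 1426642_at they were 66.1% and 19.6%. Olfml2b (44.2% and 40.4%) and Sdc1 1415943_at (42.6% and 43.4%) were split about evenly. Tgfbi had more between lines, 47.2% to 51.8%, than between groups, 23.5% to 34.5%. The shares between groups carry the choice of the genes, and a large share between groups leaves less for the lines, so both are a description.

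**Figure D3:**
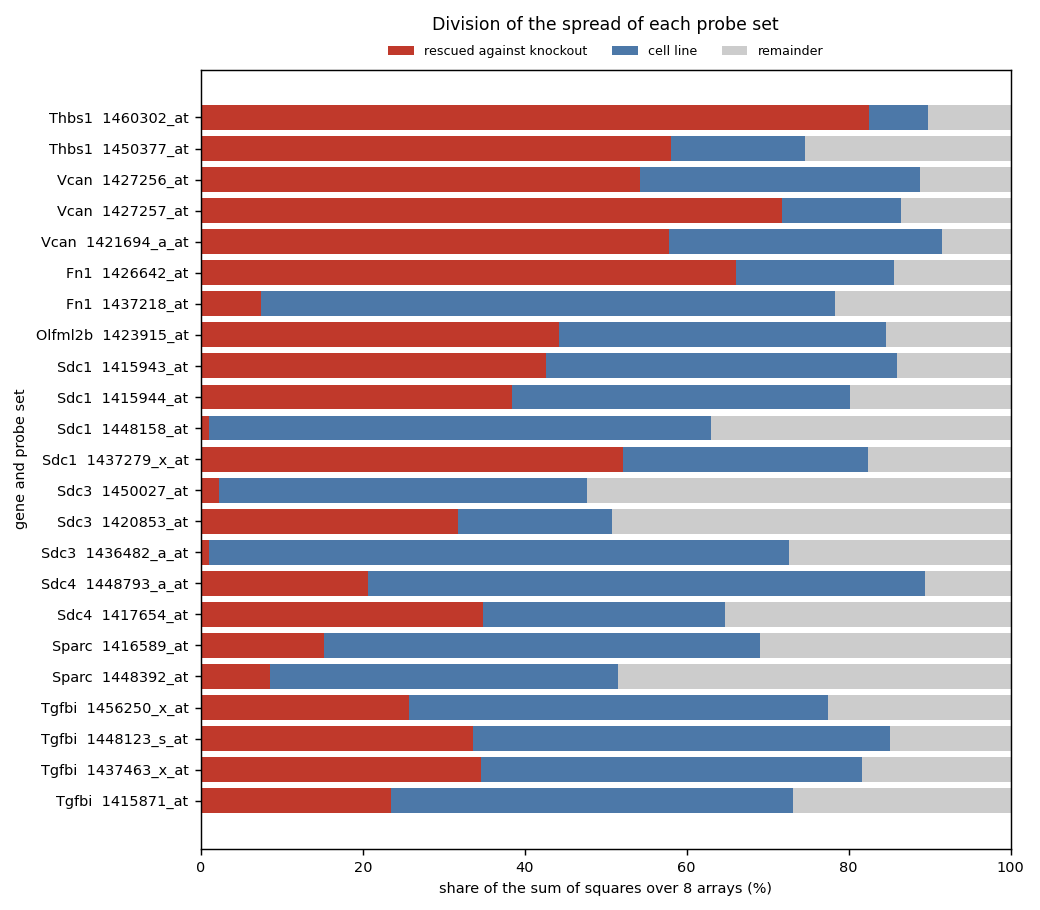
Share of the sum of squares over the 8 arrays (%, horizontal axis) for each of the 23 probe sets (vertical axis), divided into rescued against knockout (red), cell line (blue) and the remainder (grey). Thbs1 1460302_at had the largest red part, 82.5%, and the 4 Tgfbi probe sets had blue parts of 47.2% to 51.8%, larger than their red parts.

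Whether the 4 lines differed in these genes was tested with limma's F test for the line, which holds the same number of rescued and knockout arrays of each line. None of the 23 probe sets passed an adjusted p under 0.05, against 10.8% of all 22626 probe sets. The adjusted p of the 23 lay between 0.0897 and 0.858. At an adjusted p under 12.3%, where 23.0% of all probe sets passed, 2 of the 23 did, Sdc4 1448793_a_at (adjusted p = 0.0897) and Vcan 1421694_a_at (0.107), and at an unadjusted p under 0.05, where 29.3% of all passed, 5 did. With 2 arrays a line this test has few degrees of freedom, and a p above the threshold does not show that the lines are alike. The error term is the spread of the differences within lines, which the choice of the genes used. The counts among the 23 are therefore not independent of the choice.

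The line means show where the lines stood. For Vcan 1427256_at they were 6.80, 7.16, 7.16 and 5.81 in 6A, 6B, 6D and 84, for Olfml2b 8.08, 7.82, 8.24 and 6.76, and for Sdc1 1415943_at 6.98, 6.30, 5.98 and 5.08. Line 84 was lowest in all of these. For Tgfbi 1456250_x_at the mean was highest in 6B, at 8.98, against 7.70 in 6A, 7.71 in 6D and 7.51 in 84. The line test depended on line 84: without both of its arrays 1 of the 23 passed (Tgfbi 1448123_s_at), where 58 of all probe sets did. Without its rescued array alone, 1 knockout array stood for line 84. Its level could then not be told apart from its difference between the groups.

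Other matrix genes had smaller differences between the groups than Thbs1, Vcan, Fn1, Olfml2b and Sdc1, which were chosen by the size of theirs. In 9 lists of related genes, without the 9 themselves, 178 of 210 genes were measured. Of these, 0 passed in limma at 12.3% with or without the line as a block, 4 had an unadjusted p under 0.05, all higher in rescued cells (Has3, Mmp3, Ecm1 and Lama5), 0 were called by unpaired SAM, and 3 by paired SAM (Lama5 higher, Itga6 and Id3 lower). A total of 16 (8.99%) had a positive and 9 (5.06%) a negative difference in every line, against 13.4% and 12.0% of all genes. Their differences lay between −0.44 (Itga6) and 0.63 (Ccn3), and 1 of the 178 was past 0.5 in size, against 1.82% of all genes. The brightest probe sets of the 9 had a median difference of 0.82, between −1.36 and 1.38, values that carry their choice. Those of Sparc, Sdc3 and Sdc4, at −0.09, −0.09 and −0.19, were smaller in size than the differences of Ccn3 and Itga6. Of the 178, 97 lay among the dimmest 40% of probe sets.

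**Figure D4:**
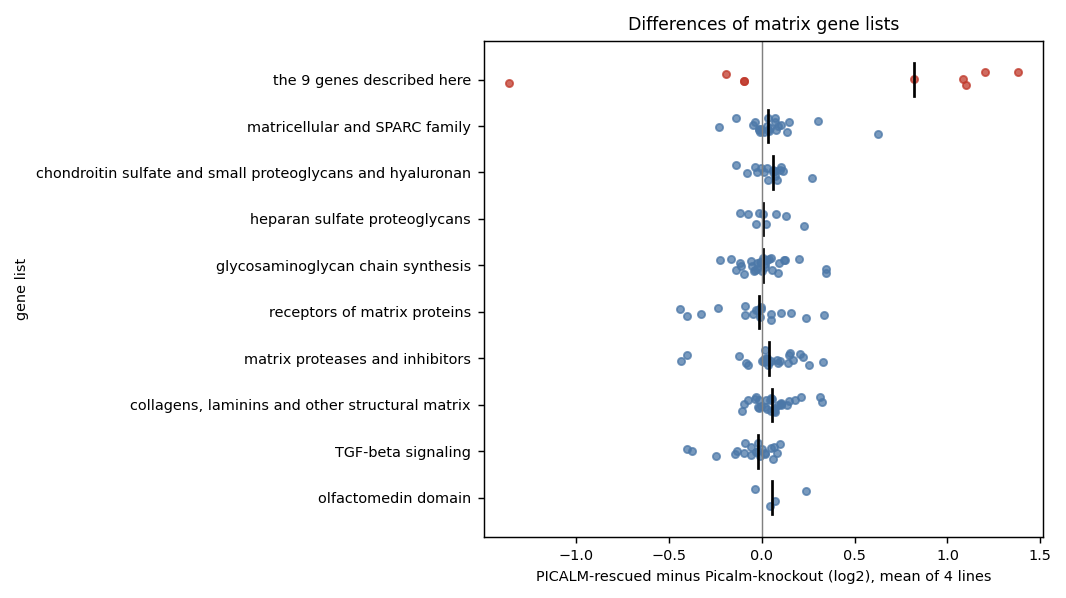
Average difference between PICALM-rescued and Picalm-knockout cells (log2, horizontal axis) of each measured gene of the 9 genes described (red) and of 9 lists of other matrix genes (blue), with a bar at each list's median. The 178 other genes lay between −0.44 and 0.63 and the 9 genes between −1.36 and 1.38. Of the 9, Thbs1, Vcan, Olfml2b, Fn1 and Sdc1 were chosen by their differences.

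Among the secreted matricellular and Sparc-related genes, 23 were measured, of which 2 differed upward in every line and 1 downward, with a median difference of 0.04. Ccn3, a regulator of growth and adhesion, read 11.14, 11.08, 10.66 and 9.65 in rescued cells and 10.92, 10.76, 10.28 and 8.07 in knockout cells. It was higher in each line, mostly in 84, and its lines differed (adjusted p = 0.034 in limma's F test). Matn3, a cartilage matrilin, was the largest of those lower in all lines, at −0.14.

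Of 17 genes for chondroitin sulfate and small proteoglycans and hyaluronan, 2 differed upward and 1 downward in every line, with a median of 0.06. Has3, a hyaluronan synthase, differed by 0.27 and Hyal2, a hyaluronidase, by −0.14, and the hyaluronan receptor Cd44 by 0.03. Srgn, which encodes the granule proteoglycan serglycin, was at 14.21 ± 0.07 in rescued cells and 14.12 ± 0.16 in knockout cells (SD, n = 4 each). Of 9 heparan sulfate proteoglycans, 1 (Gpc6, 0.08) was higher in all lines and 0 lower, with a median of 0.01. Sdc2, the syndecan not among the 9, differed by −0.12.

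The enzymes that build the sugar chains of these proteoglycans numbered 30, with 2 upward and 2 downward in every line and a median of 0.01. Chst12, a chondroitin sulfotransferase, differed by 0.35 and Glce, the epimerase that converts glucuronic to iduronic acid in heparan sulfate, by −0.22. Of 18 receptors of matrix proteins, 0 were higher and 2 lower in all lines. Itga6, an integrin subunit that pairs to bind laminin, read 9.68, 10.00, 9.74 and 11.03 in rescued cells and 10.09, 10.46, 10.28 and 11.37 in knockout cells, lower by 0.34 to 0.54 in each line, with line 84 above the others in both groups (adjusted p = 0.00184 between lines in limma's F test). The thrombospondin receptors Cd47 and Cd36 differed by 0.05 and −0.09, and Itgav, a subunit of receptors for fibronectin and Tgfbi, by −0.01.

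Of 25 matrix proteases and inhibitors, 2 were higher and 0 lower in all lines, the larger Timp2, a metalloproteinase inhibitor, at 0.25. Of 31 collagens, laminins and other structural genes, 5 were higher and 0 lower. The largest were Lama5, a laminin chain, and Ecm1, a secreted matrix glycoprotein, both at 0.32, and Ecm1 read 7.36 to 7.73 in rescued cells and 7.02 to 7.31 in knockout cells, without overlap. Of 21 genes of TGF-beta signaling, 2 were higher and 3 lower. Tgfb1 differed by 0.05 and Tgfbr1, a receptor chain, by −0.14. Smad2, a signal transducer, was the larger of those higher, at 0.08, and Tgif1, a repressor of the pathway, differed by −0.40. Only 4 of 12 other olfactomedin domain genes were measured, and 0 had the same direction in all lines.

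Between the 4 lines, 27 of the 178 genes (15.2%) passed limma's F test at an adjusted p under 0.05, against 11.8% of all genes, and 0 of the 9 genes did on any probe set. As above, the count for the 9 is not independent of their choice.

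The genes whose values over the 8 arrays were most like those of the 5 genes with the largest differences were found by Pearson's r, as a description. For Thbs1 they were Klk6 (0.98), Lyst (0.97) and Elovl1 (0.96). For Vcan they were Mast2 (0.98), Prkar1b (0.98) and Gm6277 (0.97), and for Fn1 Ceacam1 (0.95), Nxn (0.94) and Selenof (0.94). For Olfml2b they were B3gat3, 1810055G02Rik and Acpp, all at 0.98. The B3gat3 probe set in question differed by 0.15 between the groups, and a brighter B3gat3 probe set by −0.01. For Sdc1 they were Glce (0.97), Alg14 (0.97) and Gid8 (0.96). Glce differed by −0.36, −0.30, −0.19 and −0.04 in 6A, 6B, 6D and 84, where Sdc1 1415943_at, the probe set used for the search, differed by −1.99, −2.11, −1.19 and −0.15. The differences of these genes were 0.10 to 0.37 in size, apart from 0.73 for Lyst, a regulator of lysosomal trafficking, and 0.55 for Acpp.

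Neutrophil genes differed between the groups on the same arrays, on a list of granule genes that also held Cybb, S100a8 and S100a9. The marker lists were chosen with results of these arrays known. The paper names Camp, Ngp, Lcn2, Ltf and S100a9 among its top upregulated genes from the same arrays. Counts and medians of these lists are therefore a description and not evidence. Of the 10 neutrophil genes, 7 were higher in rescued cells of every line and 0 were lower, against 13.4% and 12.0% of all genes. Their median difference was 1.29. Their mean level was 11.65, 10.59, 10.46 and 10.46 in rescued cells of 6A, 6B, 6D and 84 and 10.04, 9.81, 10.02 and 8.75 in knockout cells, with no overlap. Line 84 was the lowest knockout array here as it was for Vcan, Fn1, Olfml2b, Tgfbi 1456250_x_at and Sdc1 1415943_at. It was not the lowest for Thbs1 1460302_at, Sparc, Sdc3 1450027_at or Sdc4 1448793_a_at. Of 8 mast cell and basophil genes, 5 differed upward in every line and 1 downward, against the same shares of all genes. Their median difference was 0.81. Their mean level was 6.93, 5.94, 6.47 and 8.67 in rescued cells of 6A, 6B, 6D and 84 and 5.86, 5.70, 5.87 and 7.16 in knockout cells. Both arrays of line 84 were the highest of their group here, whereas for Vcan 1427256_at, Olfml2b and Sdc1 1415943_at both were the lowest. Among these genes S100a8 and Lyz2 had the highest levels of the first list and Mcpt8 of the second, and Tpsab1 of mast cells was among the dimmest 40%. The part of these cell types in the differences of the 9 genes was not tested.

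Markers of other cell types are given by their counts and levels. Of all genes, 13.4% were higher and 12.0% lower in every line, and nothing is read from counts near these shares. Of 11 stromal fibroblast genes, 2 differed upward in every line and 0 downward, with mean levels of 5.78 to 5.84 in rescued cells and 5.67 to 5.75 in knockout cells. Of 10 monocyte and macrophage genes, 2 were higher and 1 lower, with a median of −0.09 and mean levels of 8.05 to 8.84 in rescued cells and 8.01 to 8.83 in knockout cells. Of 8 megakaryocyte and platelet genes, whose cells store thrombospondin, 0 were higher and 1 lower, with mean levels of 6.13 to 6.67 in rescued cells and 6.10 to 7.18 in knockout cells. Of 8 endothelial genes, 0 had the same direction in all lines. Of 7 plasma cell genes, 1 was higher and 0 lower, with mean levels of 6.36 to 6.80 in rescued cells and 6.43 to 6.83 in knockout cells. Of 6 hepatocyte genes, 1 was higher and 1 lower, and of 7 erythroid genes 0 had the same direction in all lines.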

How the data were processed

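RNA of 8 cultures was labelled with biotin and hybridized to Affymetrix mouse arrays. The methods name the full array version, whereas the labels name the A version, whose size the table has. The authors deposited log2 values after RMA normalization, and these were not normalized again. The table held 22690 probe sets. After removal of 64 controls, 22626 were tested, with 1 gene symbol for 20380 of them, several for 691 and none for 1555. Of the gene IDs, 20351 were present in the RefSeq gene table, with 0 symbol changes, and 0 sample columns were unmapped. Precision is limited by the number of arrays. Each line was measured once in each group, so p-values reflect the spread between these cultures.

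PICALM-rescued and Picalm-knockout arrays (4 each) were compared in limma 3.58.1 with lmFit and two-sided eBayes tests (R 4.3.3, statmod 1.5.0). P-values were adjusted by Benjamini-Hochberg across the whole table, and the threshold was the 12.3% of the SAM analysis in the methods. No pairing is named there, so the line entered as a block only as an alternative. Both arrays of a line derive from 1 cell line. After subtraction of the group means they correlated at 0.623 to 0.811 within lines, and each of the 8 arrays was closest to its partner. SAM followed its published formula, with 70 label arrangements or, when paired, 16 sign flips. Lines were compared with limma's F test in a model of line and group, at an adjusted p under 0.05. The scripts were tested on simulated data.

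The 9 genes, the 9 lists of 210 other matrix genes, the 10 marker lists, the tests and the alternatives were chosen with earlier results of these data known. For lists, the probe set with the highest mean stood for a gene. The text names every probe set of the 9 genes, the 3 genes most correlated with each of 5 of them, the list genes with the largest difference in each direction among those alike in all lines, and the brightest or relevant markers. Cd44, Srgn, Sdc2, Cd47, Cd36, Itgav, Tgfb1, Tgfbr1, Mmp3, Id3 and the second B3gat3 probe set were added after their values were seen. Promoter windows are RefSeq's (250 bases before and 50 after a start, GRCm38.p6), of which the upstream bases were searched. Alternatives were the line block, SAM, the methods' two-sided Student's test, another threshold, quantile normalization, median centring, removal of the dimmest 40%, limma's trend and robust options, gene means over probe sets, and omission of single arrays or whole lines.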

Additional observations from a re-analysis of the deposited data

Results flagged for a closer look

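Of 46 groups of 4 arrays (23 probe sets in each of the 2 groups), 4 (8.70%) held an array far from the other 3 by Dixon's criterion, where chance gives about 1 in 20. On Vcan 1421694_a_at the Picalm-knockout array of line 84 read 4.63, against 5.93 to 6.14 on the other knockout arrays. On Vcan 1427256_at the same array read 4.73, against 6.37 to 6.59. On Sparc 1416589_at the PICALM-rescued array of line 6D read 6.32, against 6.52 on the other rescued arrays. On Sdc3 1450027_at the PICALM-rescued array of line 6A read 7.24, against 7.09 to 7.11. Both Vcan probe sets were higher in the rescued array of every line, with folds of 2.26 and 2.17 without line 84.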

How the results depend on the processing

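Of the differences of the 23 probe sets under quantile normalization, median centring, the filter on dim probe sets and leaving out each array or line, all 335 values moved by less than the spread between replicates (1 SD). With 4 arrays a group this was largely fixed in advance. Leaving out an array or line can move a difference by at most about 1 SD, and the filter changes no value. It does not show that the differences are stable: without line 84, Tgfbi 1456250_x_at went from 0.82 to 0.39 and Sdc3 1450027_at from −0.09 to 0.17. Calls moved as well. Over all probe sets, limma called 0, and 18 with the line as a replicate block (paired), which left the count among the 23 at 0. SAM called 61 unpaired and 612 paired, and the methods' t-test 1179 at a p under 0.05 and 0 after adjustment. Leaving out arrays or lines gave 0 to 8. Among the 23, SAM called 3 and 7, the t-test 7, and leaving out arrays or lines gave 0 to 1, the 1 without line 84. The count higher in all lines was 10 by probe set, 5 by gene mean, and 10 to 13 with a line left out. The count lower in all lines was 3, with 0 without the dimmest 40%, 1 by gene mean, and 3 to 5 with a line left out. The line test called 2440 of all probe sets, against 5211 at 12.3%, 3740 with limma's trend and robust options together, 1477 by gene mean and 58 to 4106 with arrays or lines left out. Among the 23 it called 0, against 2 at 12.3% and 0 to 9 with arrays or lines left out, the 58 without line 84, and the 4106 and the 9 without its rescued array. Tests that leave out arrays use fewer samples, and the gene mean fewer features. Where 1 array was left out of the line test, 1 array stood for its line. The level of that line could then not be told apart from its difference between the groups. Otherwise the cause was not tested. Sdc1, Sdc4 and several other probe sets lie among the dimmest 40%, where the signal over background limits what a difference shows.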
